A study of Mus musculus with 44 samples.

Results

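Oxidative phosphorylation is carried by inner-membrane complexes whose subunits come from 2 genomes, and 91 of the 35249 genes in the count table belonged to this set by their symbols. The rule took symbols beginning with mt-Nd, mt-Co, mt-Cytb or mt-Atp, with Ndufa, Ndufb, Ndufc, Ndufs or Ndufv, with Uqcr and with Cox4 to Cox8, together with Sdha, Sdhb, Sdhc and Sdhd. It used no measured value, and 4 pseudogenes marked -ps were left out. The 91 genes were 13 encoded in mitochondrial DNA and 78 encoded in the nucleus. The nuclear genes included 8 Ndufaf genes, which encode complex I assembly factors and not subunits. Nuclear ATP synthase genes fell outside the rule and are described with the rest of the pathway.

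The livers came from a study of necroptosis and hepatocellular carcinoma, and 44 RNA sequencing libraries in 9 groups were analysed. Wild-type (WT) mice, Ripk3 knockout mice (Ripk3-/-, written Ripk3KO) and Mlkl knockout mice (Mlkl-/-, written MlklKO) entered the experiment at 2 months of age. For 6 months each mouse ate normal chow (the control diet) or a diet deficient in choline, low in fat (CD-LFD) or high in fat (CD-HFD). RIPK3 and MLKL are the kinase and the membrane-permeabilising effector of necroptosis, and both knockouts lack that pathway. There were 6 WT libraries on each diet. Ripk3KO had 6 control, 3 CD-LFD and 4 CD-HFD libraries, and MlklKO had 6, 4 and 3. The knockouts are named without a cell type or a driver, and sex, the deleted part of each gene and the origin of the controls were not given in the sources used here. The labels number the libraries and do not say that each is a separate mouse, so p-values measure the spread between these libraries.

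Complex I (NADH dehydrogenase), complex II (succinate dehydrogenase), complex III (cytochrome bc1) and complex IV (cytochrome c oxidase) pass electrons from NADH and succinate to oxygen, and the proton gradient that complexes I, III and IV build drives ATP synthase. Mitochondrial DNA is transcribed as long polycistronic RNAs that are cut into the messages for a few hydrophobic core subunits, while all other subunits, and every subunit of complex II, are transcribed in the nucleus. Hepatocytes are rich in mitochondria and rely on this chain for gluconeogenesis, urea synthesis and fatty acid oxidation.

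WT CD-LFD replicate 3 was by far the deepest library, with 88204703 counts, and the other 43 totals ran from 2476268 to 12471844. Ripk3 lay between 0.439 and 5.94 CPM (a gene's counts scaled to a common library total) in WT libraries, and at 0 to 0.263 in all Ripk3KO libraries except the library labelled Ripk3KO control replicate 5, with 1.01. Mlkl lay at 1.24 to 6.02 in MlklKO libraries except the library labelled MlklKO CD-HFD replicate 1, with 14.4, and WT libraries ranged from 2.02 to 22.6. The summed CPM of 12 hepatocyte markers was 72293 to 184185 over the WT libraries, and none of the 10 striated muscle and brown fat markers passed the count filter. Libraries were split by the log2 ratio of the clock genes Arntl and Dbp, at the widest gap that left 5 or more on each side. By this split 11 libraries lay on the high side and 33 on the low side. The gap was 0.969, and wider gaps nearer the high end were not used. WT control replicates 1, 3, 5 and 6 were on the high side, and replicates 2 and 4 on the low side. Among the WT control libraries, replicates 5 and 6 also held the most counts of unnamed predicted genes, 0.557% and 0.757% of their counts, against 0.321% to 0.367% in the other 4. WT CD-LFD replicates 5 and 6, with 0.656% and 0.670%, were likewise the highest of their group. The results that rest on those libraries are given below with and without them.

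The mitochondrially encoded messages were counted at very unequal levels. Per kilobase of exon, averaged over all 44 libraries, mt-Co1 (catalytic subunit I of complex IV) stood at 9990 CPM, mt-Cytb (cytochrome b of complex III) at 7181, mt-Nd1 at 5408, mt-Nd2 at 5310, mt-Nd6 at 3132, mt-Nd4 at 2706 and mt-Nd5 at 1887 (the Nd genes encode core subunits of complex I). The other 6 were counted at far lower levels per kilobase. mt-Co2 (subunit II of complex IV, which receives electrons from cytochrome c) was at 45.0 CPM per kilobase, 0.450% of mt-Co1. The levels were 31.2 for mt-Nd3, 26.2 for mt-Atp6, 24.2 for mt-Co3 and 10.1 for mt-Nd4l, and mt-Atp8 had 70 counts in all libraries together.

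The 5 low genes other than mt-Atp8 have near-identical nuclear copies annotated as genes of their own, found by aligning the GENCODE M21 transcripts with a minimum of 95% identity over at least 100 bases. The copies of mt-Co2, mt-Co3, mt-Atp6 and mt-Nd4l took counts of the same order as the genes themselves. Gm28661 had 7019 counts against 10986 for mt-Co2, Gm28437 had 7106 against 6932 for mt-Co3, Gm10925 had 8187 against 6535 for mt-Atp6, and Gm10222 had 816 against 1154 for mt-Nd4l. For mt-Nd3, Gm28438 matched at 99.7% and had 617 counts against 4129. mt-Co1 also has a full-length copy, Gm13340, but one with 97.6% identity and 37 mismatches over 1545 bases, and it had 24952 counts against 5804304. The first 60 bases of mt-Co2 and its copy show a stretch that a read cannot assign. For mt-Co1 and its copy, consecutive windows of 60 bases were compared. Bases 661 to 720 are the first window with the highest number of differences, the 4 mismatches in capitals.

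mt-Co2: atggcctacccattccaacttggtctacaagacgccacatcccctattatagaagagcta
Gm28661: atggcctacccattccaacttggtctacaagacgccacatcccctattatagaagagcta
mt-Co1: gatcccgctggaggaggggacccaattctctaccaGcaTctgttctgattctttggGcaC
Gm13340: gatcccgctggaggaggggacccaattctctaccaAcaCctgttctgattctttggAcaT

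mt-Co2 and Gm28661 were identical over all 681 bases. How the authors' counting treated reads that match several places is not given in the sources used here, so the absolute levels of mt-Co2, mt-Co3, mt-Atp6, mt-Nd3 and mt-Nd4l are uncertain. mt-Nd4 had an identical copy over 63.6% of its length and still had 1390554 counts against 3799 for that copy, Gm28439. mt-Atp8, which has no such copy, overlaps mt-Atp6 by 43 bases. The order of levels did not follow the copies in every gene, and the part they play in the low counts was not tested.

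**Figure D1:**
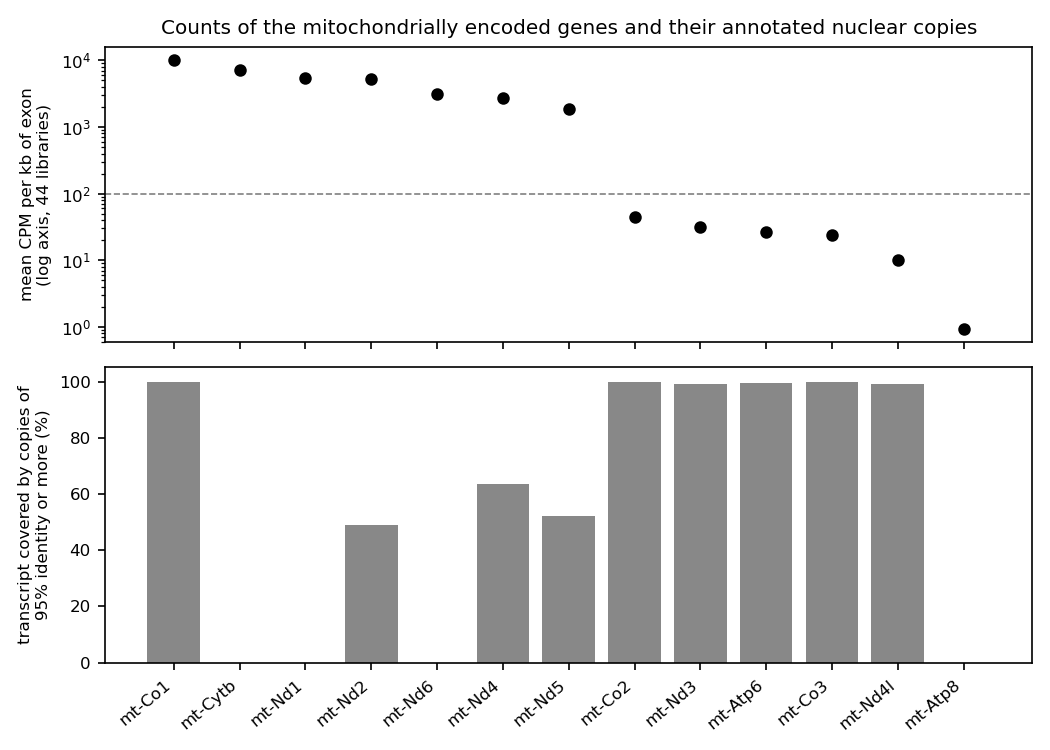
Upper panel, mean CPM per kilobase of exon over 44 libraries on a log axis for the 13 mitochondrially encoded genes, with a dashed line at 1% of mt-Co1. Lower panel, share of each transcript covered by annotated nuclear copies of 95% identity or more. mt-Co1 stands at 9990 CPM per kilobase and mt-Co2 at 45.0.

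Among nuclear subunits the levels per kilobase followed the ubiquitous isoforms. Cox6a1 was at 464 CPM per kilobase, Cox4i1 at 329, Cox8a at 283, Uqcr11 (a small complex III subunit) at 252, Cox6b1 at 243 and Cox7a2 at 139. Their heart, skeletal muscle, lung or testis counterparts were close to the counting floor. Per kilobase, Cox7a1 was at 2.96 CPM, Ndufa4l2 at 1.54, Cox8b at 0.807, Cox6b2 at 0.575, Cox6a2 at 0.526 and Cox4i2 at 0.198. Complex II subunits lay between these ends, with Sdhd at 113 CPM per kilobase, Sdhb at 102, Sdha at 92.2 and Sdhc at 54.1. After the filter on low counts 83 members were tested, 12 mitochondrial and 71 nuclear. Those left out were mt-Atp8, Cox4i2, Cox6a2, Cox6c2, Cox8b, Ndufa11b, Ndufb4c and Ndufs6b.

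The share of all counts taken by each genome's members was compared in every library. The 13 mitochondrial genes took 4.95% ± 3.81 (SD, n = 6) in WT control, 5.21% ± 1.41 (n = 6) in WT CD-LFD and 4.07% ± 0.695 (n = 6) in WT CD-HFD. In Ripk3KO the shares were 3.95% ± 1.37 (n = 6), 4.32% ± 0.533 (n = 3) and 3.78% ± 0.743 (n = 4) in the same order of diets, and in MlklKO 3.56% ± 0.625 (n = 6), 5.10% ± 1.21 (n = 4) and 3.23% ± 0.576 (n = 3). The order of these means, from WT CD-LFD down to MlklKO CD-HFD, put each mean closer to its neighbour than the larger SD of the pair. WT control spread most, with 1.16% at the lowest, 3.76% at the median and 11.9% at the highest.

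The 78 nuclear genes together took less than 1% of counts in each group mean. The shares were 0.927% ± 0.203 in WT control, 0.942% ± 0.107 in WT CD-LFD and 0.864% ± 0.130 in WT CD-HFD. They were 0.760% ± 0.136, 0.960% ± 0.104 and 0.766% ± 0.037 in Ripk3KO, and 0.684% ± 0.071, 0.918% ± 0.066 and 0.691% ± 0.084 in MlklKO. In each of the 3 genotypes the CD-LFD mean was the highest of the 3 diets.

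Mitochondrial counts exceeded nuclear ones by a similar average factor in the 9 groups. The log2 ratio of mitochondrial to nuclear summed counts was 2.10 ± 1.16 in WT control, 2.43 ± 0.313 in WT CD-LFD and 2.23 ± 0.142 in WT CD-HFD. It was 2.33 ± 0.318, 2.17 ± 0.203 and 2.28 ± 0.244 in Ripk3KO, and 2.37 ± 0.245, 2.44 ± 0.328 and 2.22 ± 0.137 in MlklKO. The 13 differences between groups ran from -0.266 to 0.336, and the libraries of the groups overlapped in each of them. Since the ratio is a score over the members, no p-value was attached to it.

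The WT control libraries were the exception in their spread. Their linear ratios were 5.02, 3.37, 5.54, 1.04, 5.33 and 11.8 for replicates 1 to 6, while the 38 other libraries lay between 3.66 and 7.30. Replicate 4 was the lowest and replicate 6 the highest of all 44. In replicate 4 the mitochondrial ribosomal RNAs, at 3655 CPM, were close to those of replicates 1 to 3, at 3402 to 4693. In replicates 5 and 6 they were at 15061 and 14907 CPM, the highest of the WT control group. WT CD-LFD replicates 5 and 6 were at 5934 and 5456 CPM. The part that the ribosomal RNA or the predicted-gene counts play in the ratio was not tested.

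**Figure D2:**
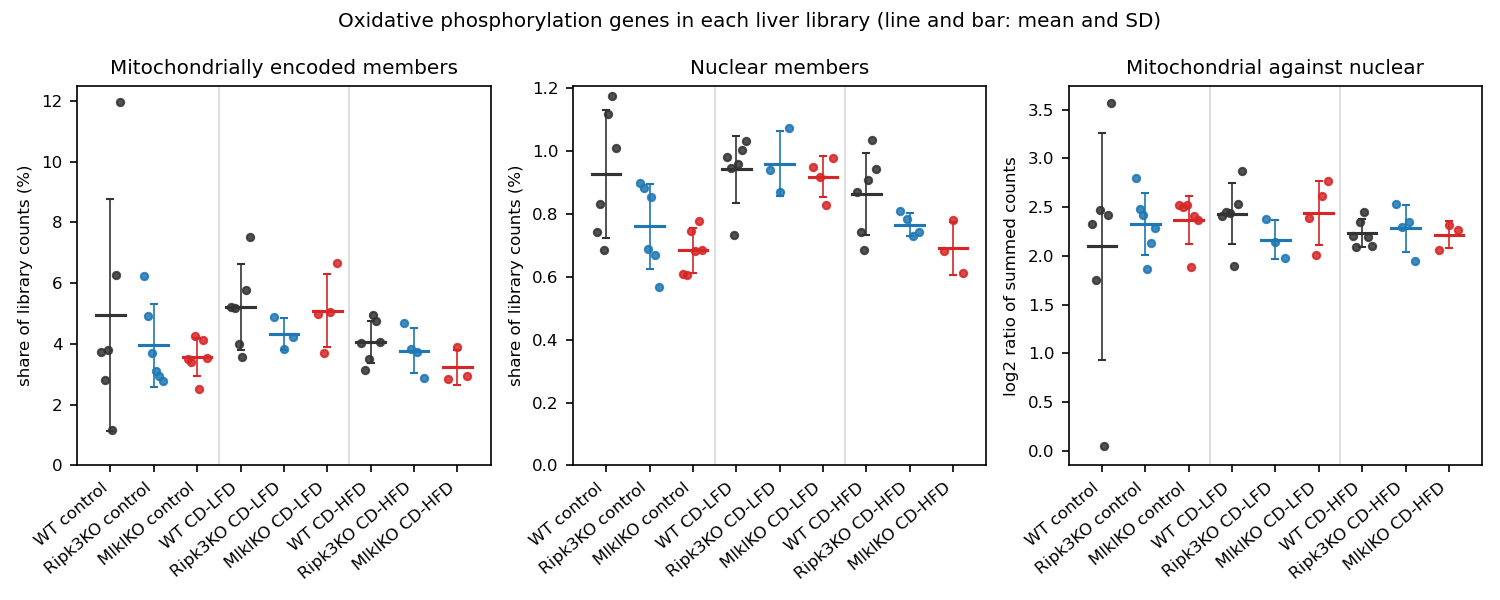
Percent of all counts from mitochondrially encoded members, percent from nuclear members, and the log2 ratio of their counts, for each of 44 libraries by group. Lines and bars are the mean and SD. WT control spreads from 1.16% to 11.9% in the mitochondrial share.

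On the log2 scale mitochondrial sums had a larger SD than nuclear sums in all 9 groups. The within-group SD of the mitochondrial sum was 1.07 in WT control against 0.320 for the nuclear sum. In the other 8 groups the mitochondrial SD was 0.143 to 0.469 and the nuclear SD 0.060 to 0.283. Among WT control libraries the mitochondrial sum covered an 8.89-fold range and the nuclear sum a 1.67-fold range. In WT CD-HFD the fold ranges were 1.69 and 1.73, with the nuclear one the wider. The most abundant mitochondrial messages kept similar shares of the mitochondrial sum. mt-Co1 made up 34.7% to 38.0% of mitochondrial member counts in the 9 group means, mt-Cytb 18.0% to 19.9%, and mt-Nd6, the one member on the other strand, 3.09% to 4.31%. mt-Nd4 was 7.11% ± 2.20 in WT control, the lowest of the 9 means, which reached 9.34%. Among the low genes the group means ran from 0.0321% to 0.0511% for mt-Atp6 and from 0.0515% to 0.0813% for mt-Co2. They ran from 0.0371% to 0.0512% for mt-Co3 and from 0.0227% to 0.0295% for mt-Nd3.

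With all libraries and TMM scaling, WT livers on CD-HFD had lower levels of many nuclear and some mitochondrial members. The mitochondrial calls were lost without WT control replicates 5 and 6, and with library size alone few nuclear members were called, as given further on. A gene was called changed where edgeR's quasi-likelihood test gave a Benjamini-Hochberg adjusted p under 0.05 over all 14862 genes tested, and levels are CPM scaled with edgeR's trimmed mean of M values (TMM). In CD-HFD against control 7 of 12 tested mitochondrial members fell and none rose, and 47 of 71 nuclear members fell and 1 rose. Over all genes tested 24.1% were called lower and 23.5% higher. The median log2 change was -0.73 over the mitochondrial members, -0.54 over the nuclear members and -0.07 over all genes. All 12 mitochondrial and 69 of 71 nuclear estimates were below 0.

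The fall was of similar size in most complexes. Of the 27 Ndufa, Ndufb and Ndufc genes, 16 fell (median -0.50). Most encode accessory subunits of complex I, while Ndufa4, counted here by its symbol, is a complex IV subunit. Of the 11 Ndufs and Ndufv genes, which hold its catalytic core, 9 fell (median -0.56), and 5 of the 8 assembly factors fell (median -0.49). In complex III 6 of 8 fell (median -0.62), and in complex IV 7 of 13 fell and 1 rose (median -0.45). All 4 complex II genes fell, with a median of -1.0. Ndufb9, an accessory subunit of complex I, went from 157 ± 78.8 to 73.4 ± 17.6 CPM (log2 change -1.09, SE 0.21, n = 6 and 6, edgeR adjusted p = 3.8e-05). Cox5a, a structural subunit of complex IV, went from 91.3 to 47.1 CPM (log2 change -0.96, SE 0.25, edgeR adjusted p = 0.00159).

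**Figure D3:**
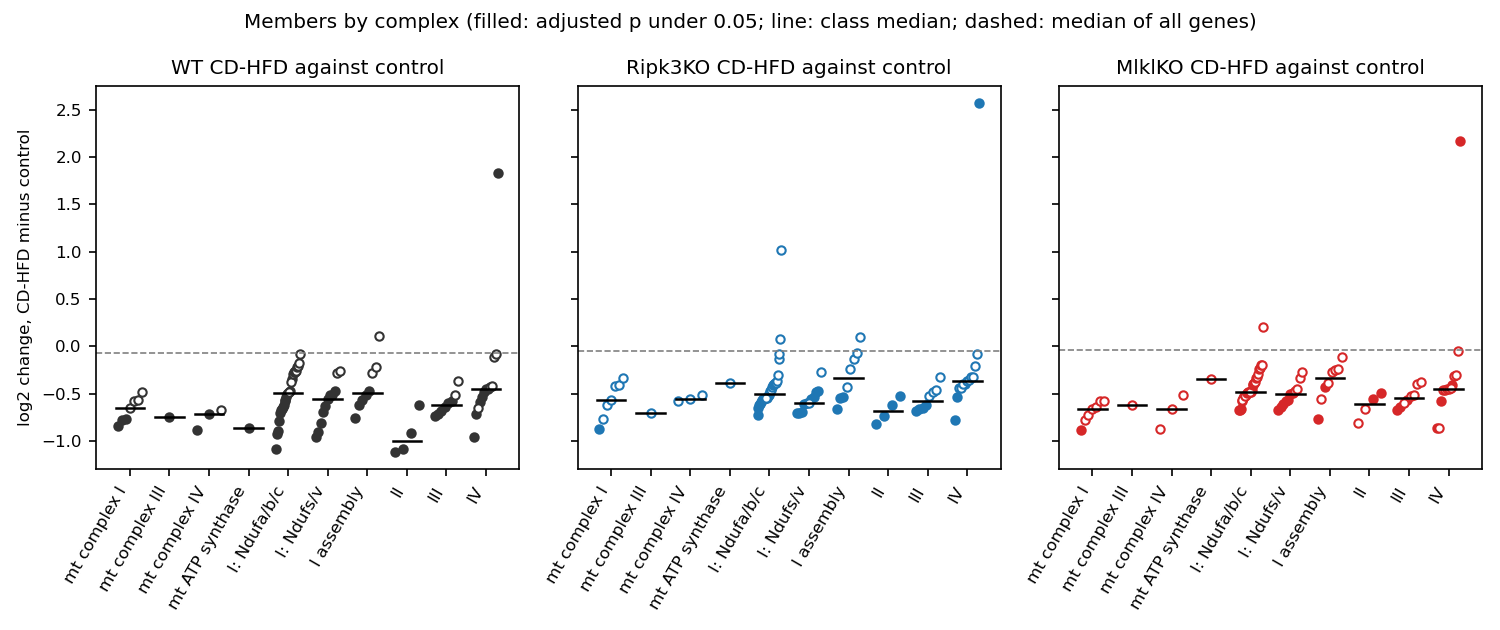
Log2 change on CD-HFD against control of each tested member by complex, in WT, Ripk3KO and MlklKO livers. Filled points passed an adjusted p under 0.05, lines are class medians, and dashed lines the median of all genes. Complex II has the lowest nuclear median in all 3 genotypes, -1.0, -0.68 and -0.61.

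Complex II oxidises succinate in the citric acid cycle and has no mitochondrially encoded subunit. Sdha, the flavoprotein subunit that binds succinate, was at 118 CPM at the lowest, 608 at the median and 787 at the highest in WT control, and at 145, 231 and 303 in WT CD-HFD. WT control replicates 1 to 4 lay at 568 to 787, above every CD-HFD library, while replicates 5 and 6, at 187 and 118, did not. The log2 change of Sdha was -1.12 (SE 0.29, edgeR adjusted p = 0.00176). Sdhb, the iron-sulfur subunit, was at 230, 280 and 525 CPM (lowest, median, highest) in WT control and at 130, 164 and 227 in WT CD-HFD. It was the single tested nuclear member whose WT control and CD-HFD libraries did not overlap (log2 change -0.91, SE 0.16, edgeR adjusted p = 5.9e-06). The share of all tested genes without overlap is not given here.

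The membrane anchors of complex II overlapped between diets. Sdhc was at 124, 207 and 350 CPM in WT control and at 119, 129 and 189 in WT CD-HFD (log2 change -0.62, SE 0.15, edgeR adjusted p = 0.000713). Sdhd was at 61.3, 208 and 276 CPM in WT control and at 49.0, 90.7 and 126 in WT CD-HFD (log2 change -1.09, SE 0.25, edgeR adjusted p = 0.000332). As for Sdha, replicates 5 and 6 were the lowest WT control libraries for Sdhd. Replicate 4 was the highest WT control library for Sdha, at 787, Sdhb, at 525, and Sdhc, at 350. In Sdhb replicates 5 and 6, at 370 and 276, lay within the range of the other 4.

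**Figure D4:**
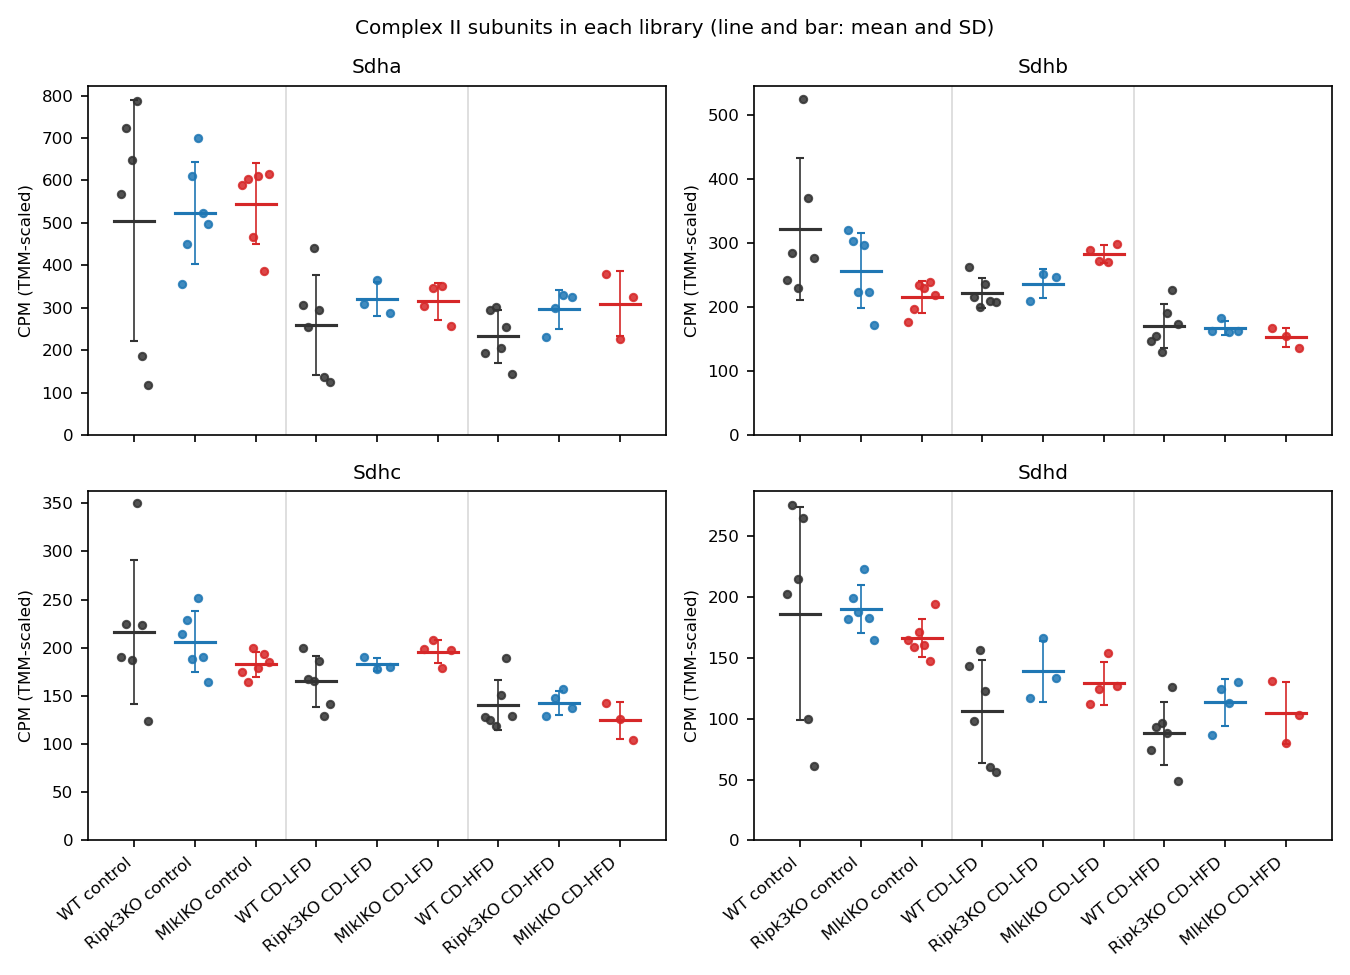
CPM (TMM-scaled) of Sdha, Sdhb, Sdhc and Sdhd in each of 44 libraries by group, with lines and bars for mean and SD. Sdhb in WT CD-HFD, 130 to 227 CPM, lies below all WT control libraries, 230 to 525.

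The promoters of Sdhb and Sdhd are shown because these genes fell together and because their windows hold letters of factors known to act on respiratory genes. The RefSeq promoter table (GRCm38.p6, not the build of the authors' counts) had 60 of the members. Sdhb is given at chr4:140961021-140961285 on the plus strand, to 15 bases past its start, and Sdhd at chr9:50603850-50604099 on the minus strand, up to its start. Capitals mark the NRF1 motif GCGCATGC, which reads GCATGCGC on the other strand, and the GABPA motif ACCGGAAG, which reads CTTCCGGT on the other strand.

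Sdhb: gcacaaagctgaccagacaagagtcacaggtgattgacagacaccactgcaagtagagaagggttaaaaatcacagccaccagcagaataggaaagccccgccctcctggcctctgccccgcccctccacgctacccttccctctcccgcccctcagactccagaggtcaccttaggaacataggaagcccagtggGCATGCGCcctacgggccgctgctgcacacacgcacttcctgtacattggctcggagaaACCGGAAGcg
Sdhd: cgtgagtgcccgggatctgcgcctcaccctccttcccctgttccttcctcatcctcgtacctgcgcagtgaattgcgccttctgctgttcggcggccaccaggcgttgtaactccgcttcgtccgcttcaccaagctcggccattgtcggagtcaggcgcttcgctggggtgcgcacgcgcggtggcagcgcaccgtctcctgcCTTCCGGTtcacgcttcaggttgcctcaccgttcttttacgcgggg

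The NRF1 match in Sdhb began 54 bases before the start and its GABPA match 5 bases past it. The GABPA match in Sdhd began 46 bases before the start. Searched on both strands of the windows of 250 bases before to 50 after each start, NRF1 letters were in 9 of the 60 member promoters (15%) and in 3.05% of 27025 promoters in the table. GABPA letters were in 6 member promoters (10%) against 2.6%, the YY1 motif AAGATGGCG in 6 (10%) against 1.64%, and the ESRRA motif TCAAGGTCA in 1, Sdhd (1.67%), against 0.466%. No motif overlapped another in Sdhb. The window of Sdha, the complex II gene with the largest fall, held none of the 4 motifs. These are matches of letters and not binding sites.

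Isoform pairs of complex IV did not move as 1 block in WT CD-HFD against control. The liver forms Cox4i1 (log2 change -0.45), Cox6a1 (-0.48) and Cox6b1 (-0.71) and Cox7b (-0.45) fell. Cox7a2 (-0.08, edgeR adjusted p = 0.682), Cox8a (-0.11, adjusted p = 0.527), Ndufa4 (-0.27, adjusted p = 0.152) and Cox7a2l, which joins complexes III and IV (-0.43, adjusted p = 0.121), did not pass. The muscle form Cox7a1 (-0.65, edgeR adjusted p = 0.205) and Ndufa4l2 (-0.30, adjusted p = 0.554) did not pass either. These calls rested on single libraries: with 1 library left out the edgeR adjusted p reached 0.0674 for Cox4i1, 0.155 for Cox6a1, 0.0543 for Cox6b1 and 0.101 for Cox7b. With library size alone Cox4i1 (0.037), Cox6a1 (0.016) and Cox7b (0.029) were above 0 without passing, and Cox7a2 (0.40, edgeR adjusted p = 0.0139) and Cox8a (0.37, adjusted p = 0.0132) were called higher.

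The 1 nuclear member called higher was Cox6b2, the testis form of subunit 6B. Its counts in WT control replicates 1 to 6 were 1, 0, 4, 0, 1 and 5, and in WT CD-HFD 14, 16, 9, 14, 13 and 17. In CPM it was 0.416 ± 0.479 in control and 1.52 ± 0.423 in CD-HFD (fitted log2 change 1.83, SE 0.55, edgeR adjusted p = 0.00529). The gene passed the filter on low counts only through libraries in which it was high, so this call, and each call of it in the other comparisons, is a description and supports nothing. It remained far below Cox6b1, the form that liver uses, which was at 95.5 to 211 CPM on CD-HFD. In the knockouts the control libraries held 0 to 3 counts of Cox6b2, so that the size of a fitted change there is not established. On CD-HFD its counts were 5, 9, 10 and 13 in Ripk3KO CD-HFD and 7, 12 and 4 in MlklKO CD-HFD. With 1 library left out the edgeR adjusted p reached 0.0238 in WT, 0.00737 in Ripk3KO and 0.079 in MlklKO. With only a genotype's control and CD-HFD libraries in the fit, Cox6b2 did not pass the filter on low counts and was not tested.

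The mitochondrial fall in WT CD-HFD was carried by 2 control libraries. mt-Co1 was at 15576, 12722, 17172, 6328, 23669 and 39565 CPM in WT control replicates 1 to 6 and at 9345 to 14805 in CD-HFD (log2 change -0.71, SE 0.24, edgeR adjusted p = 0.0126). Replicates 5 and 6 were the highest and replicate 4 lay below every CD-HFD library, so the groups overlapped. The other called genes were mt-Co2 (-0.88), mt-Atp6 (-0.86), mt-Nd2 (-0.85), mt-Nd5 (-0.78), mt-Nd6 (-0.77) and mt-Cytb (-0.74). mt-Co3 (-0.67), mt-Nd1 (-0.65), mt-Nd4 (-0.58), mt-Nd4l (-0.56) and mt-Nd3 (-0.48) did not pass, with edgeR adjusted p from 0.0661 to 0.187.

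Without WT control replicates 5 and 6, no mitochondrial member was called in WT CD-HFD against control and their median was 0.03, while 29 nuclear members fell and 2 rose (median -0.32), where 26.8% of all genes were called lower. Among the 33 libraries of the low clock side, which leaves 2 WT control libraries, 2 mitochondrial members rose (median 0.55), 29 nuclear members fell and 3 rose (median -0.49), where 20.9% of all genes were called lower and 24.1% higher. With clock side as a covariate the medians were -0.24 with no mitochondrial call and -0.65 with 45 nuclear falls, where 20.5% of all genes were called lower. With the WT control and CD-HFD groups fitted alone, 18 members were called, all nuclear and lower, where 17.8% of all genes were called lower. Leaving out WT control replicate 5 alone gave 35 calls in place of 55.

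Scaling set the reference of the nuclear fall. With library size alone the median over all genes in WT CD-HFD against control was 0.43 and that over nuclear members -0.06, with 4 called higher and 7 lower, where 45.8% of all genes were called higher and 6.86% lower. Relative to all genes the nuclear median was -0.47 with TMM and -0.49 with library size, and the mitochondrial median -0.66 and -0.71. The nuclear members' shares of all counts, 0.927% in control and 0.864% in CD-HFD, differed by less than 1 SD. Of the hepatocyte markers 11 of 12 fell (median -0.83), from a summed 97888 to 184185 CPM in WT control to 72293 to 110139 in CD-HFD. Macrophage markers rose in 8 of 12 and fell in 2, Marco (-2.33) and Clec4f (-1.68) (summed 188 to 240 against 1035 to 2619 CPM), cholangiocyte markers in 8 of 8 (62.5 to 119 against 713 to 1175) and stellate cell markers in 8 of 10 (242 to 305 against 855 to 1624). In bulk tissue fewer cells of a type and less RNA per cell cannot be told apart, and the part of these markers in the members' fall was not tested.

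The knockouts on CD-HFD also had lower nuclear messages than their own controls. In Ripk3KO 36 of 71 nuclear members fell and 1, Cox6b2, rose, and 1 of 12 mitochondrial members fell, where 21.7% of all genes were called lower and 24.6% higher. The medians were -0.50 for nuclear and -0.56 for mitochondrial members, and 67 of 71 and 12 of 12 estimates were below 0. In 19 tested nuclear genes every CD-HFD library was below every control library. How many of all tested genes lay apart in this way is not given here, so this count is a description. Ndufa9, a complex I subunit at the base of its peripheral arm, was at 102 to 172 CPM in control and at 71.3 to 96.9 in CD-HFD (log2 change -0.73, SE 0.14, edgeR adjusted p = 6.8e-05). Sdha (-0.82), Cox5a (-0.77) and Sdhd (-0.74) had the other large falls, and all 4 complex II genes fell (median -0.68). With 1 library left out the edgeR adjusted p reached 0.122 for Sdha, 0.0741 for Cox5a and 0.0966 for Sdhd, against 0.00103 for Ndufa9. The mitochondrial gene that fell was mt-Nd4l (-0.88), at 1.64 to 2.83 CPM on CD-HFD, one of the genes with a near-identical nuclear copy, and its adjusted p by edgeR reached 0.0766 with 1 library left out. Without the library labelled Ripk3KO control replicate 5 and that labelled MlklKO CD-HFD replicate 1, 33 nuclear members fell and 1 rose. The share of all genes called in that fit is not given here.

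In MlklKO 26 of 71 nuclear members fell and 1, again Cox6b2, rose on CD-HFD, and 1 of 12 mitochondrial members fell, where 20.3% of all genes were called lower and 24.9% higher. The medians were -0.48 and -0.65, and 69 of 71 and 12 of 12 estimates were below 0. In 33 tested nuclear and 4 tested mitochondrial genes the groups did not overlap. The share of all tested genes without overlap is not given here, so these counts are a description. Cox5a (-0.86), the assembly factor Ndufaf1 (-0.77), Uqcr11 (-0.67) and Ndufv1, which carries the NADH site of complex I (-0.67), were the largest falls among nuclear members that passed the test. Sdha, at -0.81, did not pass (edgeR adjusted p = 0.0688). Ndufaf1 was at 17.8 to 31.8 CPM in control and 13.2 to 15.5 in CD-HFD, and Ndufv1 at 190 to 221 against 119 to 137, with no overlap in either. mt-Nd4l (-0.88) was again the mitochondrial call. With 1 library left out the edgeR adjusted p reached 0.0742 for Cox5a, 0.148 for Uqcr11 and 0.169 for mt-Nd4l. Leaving out MlklKO CD-HFD replicate 4 gave 9 calls in place of 28, and without the 2 libraries that go against their labels 20 nuclear members fell and 1 rose. The shares of all genes called in those fits are not given here. With library size alone the nuclear median was 0.03 in Ripk3KO and 0.04 in MlklKO against 0.49 over all genes in each, and the members called were 5 and 2, all higher, so that here too the fall was relative to other genes.

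The cell type markers moved with CD-HFD in both knockouts as well. In Ripk3KO the summed hepatocyte markers were at 148039 to 170300 CPM in control and 76977 to 109411 in CD-HFD, while macrophage markers were at 68.3 to 435 and 1434 to 2000, cholangiocyte markers at 58.4 to 116 and 664 to 1232, and stellate cell markers at 165 to 251 and 978 to 1213. In MlklKO the hepatocyte markers were at 134966 to 158697 CPM in control and 86289 to 113047 in CD-HFD, macrophage markers at 109 to 273 and 1482 to 2499, cholangiocyte markers at 94.7 to 163 and 758 to 1101, and stellate cell markers at 187 to 285 and 1124 to 1617. No range overlapped between the diets, and the part of these markers in the members' fall was not tested.

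**Figure D5:**
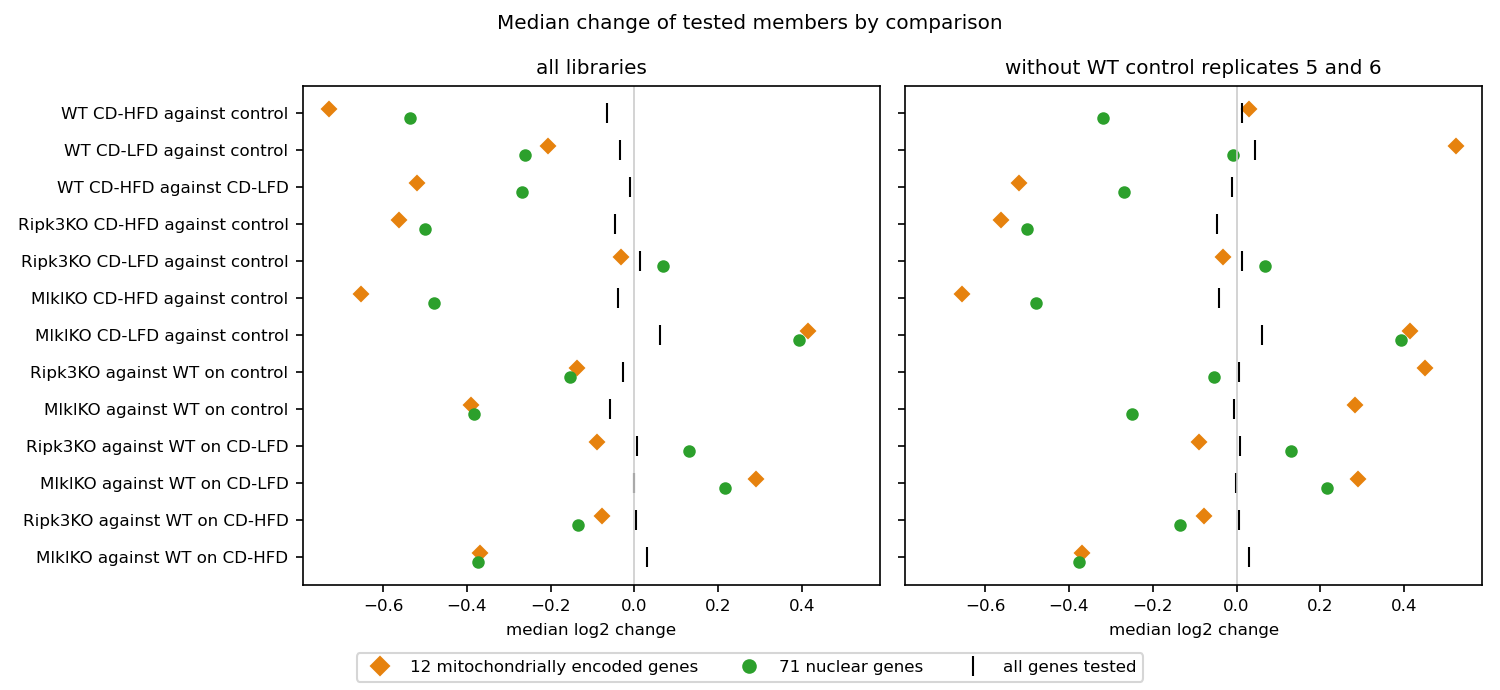
Median log2 change of the 12 tested mitochondrial and 71 tested nuclear members and of all genes in 13 comparisons, with all libraries (left) and without WT control replicates 5 and 6 (right). With all libraries, all 3 CD-HFD comparisons with control have both member medians below 0, and MlklKO CD-LFD against control has both above 0.

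CD-LFD gave different values in the 3 genotypes. In WT CD-LFD against control 17 of 71 nuclear members fell and none rose (median -0.26), and no mitochondrial member was called (median -0.21). Over all genes 14.0% were called lower and 13.7% higher. edgeR gave no mitochondrial gene an unadjusted p under 0.05 either (0 of 12), and DESeq2 called 0. The largest falls were Sdha (-0.96, edgeR adjusted p = 0.0129), Cox7a2l (-0.84, adjusted p = 0.0056), Sdhd (-0.81, adjusted p = 0.0115) and Ndufs1, the large iron-sulfur subunit of complex I (-0.79, adjusted p = 0.00409). With 1 library left out the edgeR adjusted p reached 0.0507 for Sdha and 0.0678 for Cox7a2l, against 0.0486 for Sdhd and 0.0204 for Ndufs1. Sdha was at 124, 275 and 441 CPM (lowest, median, highest) in CD-LFD, and its 2 lowest libraries, replicates 5 and 6, were at 136 and 124. The mitochondrial estimates ran from -0.37 for mt-Atp6 to 0.12 for mt-Nd3. Between them lay mt-Co2 (-0.33), mt-Cytb (-0.31), mt-Nd2 (-0.27), mt-Nd6 (-0.26), mt-Co1 (-0.24), mt-Co3 (-0.18), mt-Nd5 (-0.16), mt-Nd4 (-0.06), mt-Nd4l (-0.06) and mt-Nd1 (-0.02). Without WT control replicates 5 and 6 this comparison had 3 mitochondrial rises (median 0.52), 7 nuclear rises and 21 nuclear falls, and without replicate 4 it had 7 calls in all. Without the libraries numbered 5 and 6 of both groups, a choice made after seeing the data, 1 mitochondrial member rose (median 0.41), 2 nuclear members rose and 14 fell (median -0.05). The shares of all genes called in these fits with libraries left out are not given here. Their counts therefore do not separate a change in the members from one over all genes.

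The nuclear falls in WT CD-LFD also depended on the fit. There were 3 calls with clock side as a covariate, and none with the WT control and CD-LFD groups fitted alone, where 6.76% of all genes were still called lower. All 6 WT CD-LFD libraries were on the high clock side, against 4 of 6 WT control libraries. The summed hepatocyte markers were at 97888 to 184185 CPM in control and 72748 to 132718 in CD-LFD, macrophage markers at 188 to 240 and 252 to 403, cholangiocyte markers at 62.5 to 119 and 154 to 397, and stellate cell markers at 242 to 305 and 352 to 669. The part of these in the members' fall was not tested.

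Between the choline-deficient diets in WT, CD-HFD had 3 nuclear members lower and 1 higher than CD-LFD, with medians of -0.27 for nuclear and -0.52 for mitochondrial members. Over all genes 7.40% were lower and 13.7% higher. Ndufa8, an accessory subunit of complex I, was at 112 to 194 CPM in CD-LFD and 71.6 to 140 in CD-HFD (log2 change -0.58, SE 0.18, edgeR adjusted p = 0.0174). Ndufaf6 (-0.50) and Cox7b (-0.46) also fell, and Cox6b2 rose (fitted change 1.77). No mitochondrial member was called. edgeR gave 3 of 12 an unadjusted p under 0.05, all lower, and DESeq2 called 0. The number of calls went from 4 to 13 without WT CD-HFD replicate 5 and to 2 without WT CD-HFD replicate 2 or 3. All 6 WT CD-LFD libraries lay on the high clock side and 5 of the 6 WT CD-HFD libraries on the low side. With clock side as a covariate 20 members were called, and with these groups fitted alone 9, all lower in both fits, with no call of Cox6b2. In those fits 4.04% and 9.50% of all genes were called lower. From CD-LFD to CD-HFD macrophage markers were at 252 to 403 and 1035 to 2619 CPM, cholangiocyte markers at 154 to 397 and 713 to 1175 and stellate cell markers at 352 to 669 and 855 to 1624, without overlap, and hepatocyte markers at 72748 to 132718 and 72293 to 110139. Their part in these differences was not tested.

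In Ripk3KO CD-LFD against control no member was called by edgeR, where 24.1% of all genes were called in either direction. The nuclear median was 0.07 and the mitochondrial median -0.03. Of the nuclear members 1 had an unadjusted p under 0.05 higher and 3 lower, DESeq2 called 1 higher and 1 lower, and the smallest edgeR adjusted p was 0.0503. For mitochondrial members both counts were 0. The absence of calls depended on the fit: 15 members were called with library size alone, all higher, where 26.3% of all genes were called higher. With a replicate block, and again among the libraries of the low clock side, 1 was called higher and 5 lower, where 13.1% and 14.4% of all genes were called lower.

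In MlklKO livers on CD-LFD many nuclear subunit messages were higher. Against MlklKO control, 23 of 71 nuclear members rose and 1 fell (median 0.39), and 1 of 12 mitochondrial members rose (median 0.41), where 19.7% of all genes were called higher and 18.3% lower. The rises were 9 of 27 Ndufa, Ndufb and Ndufc genes (median 0.48), 8 of 13 complex IV genes (median 0.48), 3 of 8 complex III genes (median 0.31), 2 of 11 Ndufs and Ndufv genes and 1 of 8 assembly factors. None of the 4 complex II genes was called by edgeR, and their median was -0.13. In 23 tested nuclear and 3 tested mitochondrial genes every CD-LFD library lay above every control library. How many of all tested genes lay apart in this way is not given here, so these counts are a description.

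Ndufa5, an accessory subunit of complex I, was at 82.1, 75.3, 69.0 and 93.2 CPM in the 4 MlklKO CD-LFD libraries and at 32.7 to 57.4 in MlklKO control (log2 change 0.96, SE 0.32, edgeR adjusted p = 0.0171). The groups did not overlap. Ndufb4 (0.76), Ndufc1 (0.72) and Cox6b1 (0.69) followed. mt-Atp6, which encodes the proton-channel subunit a of ATP synthase, was at 21.6 to 34.7 CPM in CD-LFD and 9.04 to 20.8 in control, without overlap (log2 change 1.01, SE 0.32, edgeR adjusted p = 0.0131). It too has a near-identical nuclear copy. Ndufs1 fell (-0.71), from 90.7 to 134 CPM in control to 62.1 to 77.6 in CD-LFD. Cox6b2 rose with a fitted change of 1.73 from 0 to 3 control counts.

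These calls depended on single libraries. In place of 25 there were 9 calls without MlklKO CD-LFD replicate 4, 12 without MlklKO CD-LFD replicate 1, 14 without MlklKO control replicate 2 and 16 without MlklKO control replicate 4. With library size alone 44 nuclear members rose and 1 fell (median 0.53 against 0.20 over all genes). The shares of all genes called in these alternative fits are not given here. The hepatocyte markers' summed level was 134966 to 158697 CPM in MlklKO control and 141844 to 149975 in MlklKO CD-LFD, and 1 marker rose and 4 fell. From control to CD-LFD macrophage markers were at 109 to 273 and 231 to 513 CPM, stellate cell markers at 187 to 285 and 367 to 662, cholangiocyte markers at 94.7 to 163 and 151 to 229, and T and NK cell markers at 2.83 to 5.98 and 7.60 to 19.6. Their part in the members' rise was not tested.

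Genotypes were compared within each diet to ask whether the members differ where necroptosis is blocked. On the control diet Ripk3KO against WT had no call by edgeR, with medians of -0.15 for nuclear and -0.14 for mitochondrial members, where 4.47% of all genes were called. At an unadjusted p under 0.05 there were 11 nuclear and 1 mitochondrial members lower, and DESeq2 called 2 nuclear members lower. MlklKO against WT on control had 25 of 71 nuclear and 2 of 12 mitochondrial members lower and none higher (medians -0.38 and -0.39), where 14.1% of all genes were lower and 13.0% higher. In no tested member were all MlklKO libraries below all WT libraries.

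Ndufa5 had the largest nuclear difference between MlklKO and WT on control. In WT control replicates 1 to 6 it was at 41.0, 57.9, 36.4, 150, 178 and 148 CPM, and in MlklKO control at 32.7 to 57.4 (log2 change -1.29, SE 0.30, edgeR adjusted p = 0.00118). Replicates 4, 5 and 6 of WT were high, replicates 1 and 3 lay in the range of MlklKO and replicate 2 just above it. Ndufb7 (-1.04) and mt-Atp6 (-0.90) were the other named differences. mt-Atp6 was at 40.6 and 58.9 CPM in WT control replicates 5 and 6 and at 7.38 to 17.5 in the other 4, against 9.04 to 20.8 in MlklKO. Without WT control replicates 5 and 6, 7 nuclear and no mitochondrial members were lower, with a mitochondrial median of 0.28. The share of all genes called lower in that fit is not given here. The number of calls was 10 without WT control replicate 5 alone and 16 without MlklKO control replicate 2 alone.

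On CD-LFD Ripk3KO against WT had no call by edgeR (medians 0.13 nuclear, -0.09 mitochondrial), where 1.10% of all genes were called. At an unadjusted p under 0.05, 4 nuclear members were higher and no mitochondrial one was called, and DESeq2 called 0. MlklKO against WT on CD-LFD had 1 nuclear member higher and none lower, where 1.64% of all genes were higher and 0.929% lower. It was Uqcrfs1, the Rieske iron-sulfur protein of complex III, at 230 to 274 CPM in MlklKO and 138 to 204 in WT, without overlap (log2 change 0.51, SE 0.14, edgeR adjusted p = 0.0348). At an unadjusted p under 0.05, 8 nuclear members were higher, and DESeq2 called 1. The call of Uqcrfs1 was lost with the replicate block (edgeR adjusted p = 0.0532), with library size alone (0.121), with no filter (0.193), with clock side as a covariate (0.999) and without the libraries numbered 5 and 6 of WT control and WT CD-LFD (0.151). With 1 library left out its edgeR adjusted p reached 0.121. The summed hepatocyte markers did not overlap between these groups either, at 72748 to 132718 CPM in WT and 141844 to 149975 in MlklKO, and their part in this difference was not tested.

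On CD-HFD neither knockout differed from WT in any member by the threshold. Ripk3KO against WT had medians of -0.13 and -0.08 for nuclear and mitochondrial members, with 0.377% of all genes called by edgeR, no unadjusted p under 0.05 (0 of 83 members) and 0 calls by DESeq2. MlklKO against WT had medians of -0.37 and -0.37, with 0% of all genes called by edgeR and 0 members by DESeq2. There 17 nuclear and 1 mitochondrial members had an unadjusted p under 0.05, all lower.

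The difference between a knockout's response to a diet and that of WT was tested as an interaction. For CD-HFD no member was called in Ripk3KO (medians 0.07 nuclear, 0.15 mitochondrial, 0.478% of all genes called) or in MlklKO (0.06 and 0.05, 4.12% of all genes called). At an unadjusted p under 0.05 edgeR had 1 nuclear member in Ripk3KO and 0 in MlklKO, and DESeq2 called 0 in both. For CD-LFD no member was called in Ripk3KO (medians 0.29 and 0.06, 0.0269% of all genes called), with 6 nuclear members higher at an unadjusted p under 0.05 and 0 by DESeq2.

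The interaction of MlklKO with CD-LFD was positive in 70 of 71 nuclear and 11 of 12 mitochondrial estimates. That of Ripk3KO with CD-LFD, which shares the WT control and WT CD-LFD libraries, was positive in 68 of 71 and 9 of 12. The MlklKO interaction was called in 13 nuclear members and 1 mitochondrial member, all higher (medians 0.60 and 0.61), where 4.37% of all genes were called higher and 4.08% lower. The largest were Ndufa5 (1.41, SE 0.43, edgeR adjusted p = 0.0347), mt-Atp6 (1.38, SE 0.44, adjusted p = 0.0406) and Ndufb9 (1.15, SE 0.31, adjusted p = 0.0155). Ndufb9 was at 87.0 to 281 CPM in WT control, 77.4 to 118 in WT CD-LFD, 57.1 to 98.5 in MlklKO control and 100 to 129 in MlklKO CD-LFD. Both control groups enter this value, and they are the same libraries as in the comparisons above. Without WT control replicates 5 and 6, 9 nuclear members and no mitochondrial one were called, with medians of 0.45 and -0.14. In that fit the interaction was 0.54 for mt-Atp6 (edgeR adjusted p = 0.354) and 0.89 for Ndufa5 (adjusted p = 0.163), and 1.02 for Ndufb9 (adjusted p = 0.0312). Without WT CD-LFD replicates 5 and 6 as well, 5 nuclear members were called (medians 0.43 and -0.04) and none of these 3 passed, with 1.04 for Ndufb9 (edgeR adjusted p = 0.0549). Without the libraries labelled Ripk3KO control replicate 5 and MlklKO CD-HFD replicate 1, 8 nuclear members were called. The count ran from 4 to 21 when single libraries of these groups were left out. It was 4 with library size alone, 4 with clock side as a covariate, 4 without the deepest library, 5 with no filter and 3 with the groups compared fitted alone. The shares of all genes called in these alternative fits are not given here. The summed hepatocyte markers had means of 145630 CPM in WT control and 104274 in WT CD-LFD, against 148890 and 147172 in MlklKO, and their part in the interaction was not tested.

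The rest of the pathway was taken from lists in addition to the symbol rule. Their counts in WT CD-HFD against control stand beside 24.1% of all genes called lower and 23.5% higher. There 12 of 16 nuclear ATP synthase genes fell and 1 rose (median -0.62), with Atp5h (-0.96) and Atp5a1 (-0.96), the latter the catalytic-head alpha subunit, the lowest and Atp5s (0.54), a coupling factor, the one that rose. Cyc1 and Cycs, cytochromes c1 and c, both fell (-0.59 and -0.36). Of 17 tricarboxylic acid cycle and pyruvate dehydrogenase genes 11 fell and 1 rose (median -0.53), with Pdhb (-1.30) and Sucla2 (-1.18) lowest and Idh2 (0.78) higher. Among 35 tested assembly genes, mostly of complexes III and IV with some of complexes I and II, 11 fell and 1 rose (median -0.27), with Taco1, a translational activator of mt-Co1, at -1.28, and Cox17, a copper chaperone, at 0.74.

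Genes that express mitochondrial DNA and genes of mitochondrial upkeep are read against the same background. Of 28 genes for mitochondrial transcription and RNA handling 15 fell (median -0.40), led by Lrpprc, which stabilises mitochondrial messages (-1.16), and Hsd17b10, a subunit of mitochondrial RNase P (-0.96). Of 77 mitochondrial ribosomal protein genes 20 fell and 2 rose (median -0.23), a share near that of all genes. Of 12 tested mitochondrial rRNA and tRNA genes 5 fell (median -0.75), among them mt-Rnr1 (-1.45), a value that contains the high ribosomal RNA of WT control replicates 5 and 6. Of 13 regulators of mitochondrial biogenesis 7 fell (median -0.56), led by Esrrg (-1.21) and Ppara (-1.09). Of the mitophagy receptors Bnip3 fell (-0.95) and Fundc1 rose (0.53). Of 12 outer membrane and import genes 4 fell (median -0.34).

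The same lists on CD-LFD in MlklKO did not follow the members throughout. In MlklKO CD-LFD against control, where 19.7% of all genes were called higher and 18.3% lower, 3 of 16 nuclear ATP synthase genes rose (median 0.33) and 13 of 77 mitochondrial ribosomal protein genes rose while 6 fell (median 0.16). Both shares of rises were no higher than that of all genes. Of the 28 transcription and RNA handling genes 10 fell and 1 rose (median -0.34), and of the 17 tricarboxylic acid cycle genes 1 fell and 2 rose (median -0.17).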

How the data were processed

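Liver total RNA libraries (directional kit, per the labels' protocols) were processed by the authors with FastQC, STAR and HTSeq on GRCm39 (mm39), and edgeR and limma are also named, per the submitters' processing notes. Versions were not given in the sources used here. The deposited values were whole-number counts per Ensembl gene, and 34373 IDs matched a symbol. Counts were tested with edgeR 4.0.16 in R 4.3.3: TMM scaling (factors 0.799 to 1.34), filterByExpr with a minimum count of 10 (14862 genes, 99.8% of counts), 1 mean per group over 44 libraries, quasi-likelihood F tests and Benjamini-Hochberg adjustment at 0.05, checked on simulated counts. DESeq2 1.42.0, other scalings, no filter, a robust fit, a replicate block, clock side, the compared groups alone and left-out libraries were the alternatives. The members and lists were chosen with earlier results of these data known. Named were the nuclear members called with the largest rises and falls, given a mean log2 CPM no lower than 1 (4 and 4 in diet comparisons, 2 and 2 in others), all mitochondrial members in the WT comparisons with control, complex II and isoform pairs, and 2 and 2 called genes of each other list. A result that this rule would name in the mitophagy list is not reported here. Cox6b2 is under that level and is named as an isoform. Ratios were not tested. The depth limits low genes most, and counts cover counting error only.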

Additional observations from a re-analysis of the deposited data

Results flagged for a closer look

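In 2 groups 1 library lay far from the others of its group by Dixon's gap test, which chance alone does in about 1 in 20 groups. MlklKO control replicate 4 had a log2 ratio of mitochondrial to nuclear counts of 1.88, the lowest of its group. WT CD-LFD replicate 3, the deepest library, had a nuclear share of 0.733%, the lowest of its group. WT control, the group with the widest spread, gave no such library.

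The interaction of MlklKO with CD-LFD passed the threshold for 3 of the named members with all libraries in the fit: mt-Atp6 at 1.38 (log2), Ndufa5 at 1.41 and Ndufb9 at 1.15. With 1 library left out, the highest edgeR adjusted p was 0.129 for mt-Atp6, 0.0766 for Ndufa5 and 0.0415 for Ndufb9. Without WT control replicates 5 and 6, Ndufb9 passed and the other two did not. Without WT CD-LFD replicates 5 and 6 as well, none of the 3 passed, and the edgeR adjusted p was 0.300 for mt-Atp6, 0.112 for Ndufa5 and 0.0549 for Ndufb9.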

How the results depend on the processing

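Of the results on single genes, 1600 values stayed on the same side of the threshold under an alternative. A further 253 kept direction and lost the threshold, and 23 gained it. Another 29 changed sign where the reported fit or the alternative passed, and the sign changes named below are these. The 1600 include sign changes where neither fit passed. With 1 library left out, mt-Nd1 in WT CD-LFD against control ran from -0.225 to 0.402. Of the counts and ratios 548 stayed within 1.5 times of the reported count or within 1 SD of the reported ratio, and 98 counts moved beyond it. No ratio did. The causes were not tested unless named. Precision was limited by depth in genes with few counts such as Cox6b2 and mt-Nd4l, by 3 or 4 libraries in 4 knockout groups, and by the spread of WT control. The numbers that follow are members called. The shares of all genes called under each setting are not given beside them. A moved count may therefore follow the number of calls over all genes and is not a result about the members alone.

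Scaled by library size only, without TMM, the calls were 11 in WT CD-HFD against control (55 as reported), 8 in WT CD-LFD against control (17), 2 in WT CD-HFD against CD-LFD (4), 5 in Ripk3KO CD-HFD, all higher (38, of which 37 lower), 15 in Ripk3KO CD-LFD (0), 2 in MlklKO CD-HFD, both higher (28, of which 27 lower), 48 in MlklKO CD-LFD (25), 6 in Ripk3KO against WT on control (0), 0 in MlklKO against WT on CD-LFD (1) and 4 in the interaction of MlklKO with CD-LFD (14). In WT CD-HFD against control this scaling also changed the sign of Cox4i1 (0.037), Cox6a1 (0.016), Cox7a2 (0.40), Cox7b (0.029) and Cox8a (0.37). With DESeq2's size factors in edgeR the calls were 1 in Ripk3KO CD-LFD and 16 in MlklKO CD-HFD. DESeq2 itself gave 2 in Ripk3KO CD-LFD and 2 in Ripk3KO against WT on control. With no filter, which adds genes to the adjustment, the calls were 6 in WT CD-LFD, 2 in Ripk3KO CD-LFD, 16 in MlklKO against WT on control (27 as reported), 0 in MlklKO against WT on CD-LFD and 5 in the interaction of MlklKO with CD-LFD. With only the groups compared in the fit, fewer libraries gave the spread, and the calls were 18 in WT CD-HFD, 0 in WT CD-LFD, 9 in WT CD-HFD against CD-LFD, 3 in Ripk3KO CD-LFD, 49 in MlklKO CD-LFD, 8 in MlklKO against WT on control, 2 in MlklKO against WT on CD-LFD and 3 in the interaction of MlklKO with CD-LFD.

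With clock side as a covariate the calls were 3 in WT CD-LFD, 20 in WT CD-HFD against CD-LFD, 1 in Ripk3KO CD-LFD, 1 in Ripk3KO against WT on control, 0 in MlklKO against WT on CD-LFD and 4 in the interaction of MlklKO with CD-LFD. In WT CD-HFD mt-Cytb (0.029) and mt-Nd2 (0.030) changed sign. With the libraries of the low clock side alone the calls were 34 in WT CD-HFD, 6 in Ripk3KO CD-LFD, 50 in MlklKO CD-HFD, 42 in MlklKO CD-LFD, 3 in Ripk3KO against WT on control, 1 in the interaction of Ripk3KO with CD-HFD and 6 in that of MlklKO with CD-HFD. In WT CD-HFD against control this changed the sign of mt-Atp6 (0.35), mt-Co1 (0.34), mt-Co2 (0.70), mt-Cytb (0.78), mt-Nd1 (0.82), mt-Nd2 (0.76), mt-Nd4 (1.40), mt-Nd5 (0.22) and mt-Nd6 (0.52), and in MlklKO against WT on control that of mt-Atp6 (0.22). The comparisons with WT CD-LFD have no libraries on that side and gave no value.

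Without WT control replicates 5 and 6 the calls were 31 in WT CD-HFD, 31 in WT CD-LFD, 10 in WT CD-HFD against CD-LFD, 6 in Ripk3KO CD-LFD, 44 in MlklKO CD-HFD, 7 in MlklKO against WT on control, 2 in MlklKO against WT on CD-LFD and 9 in the interaction of MlklKO with CD-LFD. Among genes that passed in the reported fit or in this one, the sign changed for mt-Co2 (0.14), mt-Cytb (0.041), mt-Nd2 (0.019) and mt-Nd6 (0.058) in WT CD-HFD against control. In WT CD-LFD against control it changed for mt-Co2 (0.69), mt-Nd1 (0.88) and mt-Nd4 (0.94). Other mitochondrial members changed sign without passing in either fit. Without WT CD-LFD replicates 5 and 6 as well, the calls were 30 in WT CD-HFD, 15 in WT CD-HFD against CD-LFD, 6 in Ripk3KO CD-LFD, 43 in MlklKO CD-HFD, 10 in MlklKO against WT on control, 0 in MlklKO against WT on CD-LFD, 3 in the interaction of MlklKO with CD-HFD and 5 in that with CD-LFD. Again among genes that passed in the reported fit or in this one, the sign changed for mt-Co2 (0.14), mt-Cytb (0.043), mt-Nd2 (0.021) and mt-Nd6 (0.060) in WT CD-HFD against control. In WT CD-LFD against control it changed for mt-Nd1 (0.74), and other mitochondrial members changed sign without passing in either fit. This fit, counting the 2 genomes apart and the ratio without WT control replicates 5 and 6 were alternatives chosen after seeing the data, as was the ratio without the 6 low mitochondrial genes. Without the 2 libraries that go against their labels the calls were 1 in Ripk3KO CD-LFD and 8 in the interaction of MlklKO with CD-LFD, and without the deepest library 2 and 4.

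Nothing in the labels says that a replicate number marks a shared batch or litter. The deviations of same-numbered libraries from their group means had a median correlation of -0.0114 over 146 pairs (-0.349 to 0.545). Between WT control and WT CD-LFD it was 0.231 over 6 pairs (0.037 to 0.545). Between WT control and WT CD-HFD it was 0.252 over 6 pairs (-0.154 to 0.441), and between WT CD-LFD and WT CD-HFD 0.110 (-0.144 to 0.417). Within the knockouts the medians between diets ran from -0.132 to 0.108. The numbers may thus mark something shared in WT, CD-HFD included, without every pair passing 0.1. In WT control and in WT CD-LFD, replicates 5 and 6 had the most predicted-gene counts and the lowest Sdha. With the number as a replicate block the calls were 6 in Ripk3KO CD-LFD and 0 in MlklKO against WT on CD-LFD, and the other counts stayed within 1.5 times.

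Leaving out 1 library at a time, the calls ran from 35 to 64 in WT CD-HFD, 7 to 22 in WT CD-LFD, 2 to 13 in WT CD-HFD against CD-LFD, 0 to 2 in Ripk3KO CD-LFD, 9 to 33 in MlklKO CD-HFD, 9 to 31 in MlklKO CD-LFD, 0 to 4 in Ripk3KO against WT on control, 10 to 36 in MlklKO against WT on control, 0 to 1 in MlklKO against WT on CD-LFD and 4 to 21 in the interaction of MlklKO with CD-LFD. Ripk3KO CD-HFD had 26 to 45, within 1.5 times of the reported 38.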
